A study of Mus musculus with 6 samples.

Results

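Insulin-like growth factor (IGF) binding proteins and IGF receptors were examined in neural stem cells that overexpressed SETD4. The family comprised 9 genes chosen by name out of the 55802 genes listed: 7 secreted carriers of the binding protein type (Igfbp2, Igfbp3, Igfbp4, Igfbp5, Igfbp6, Igfbp7 and Igfbpl1) and 2 receptors (Igf1r and Igf2r). They were singled out with the comparison of SETD4 OE against control already known, so their levels and fold changes in that comparison are given as a description with no p-value. The 6 libraries averaged 1 FPKM or more for 8 of the 9 genes, and for 12994 genes in all, which were tested; Igfbp6 stayed below. FPKM scale reads to gene length and to library size, so levels of different genes can be set side by side.

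The RNA came from cultures of primary neural stem cells taken from adult C57BL/6 mice. Their source was the subventricular zone (SVZ), a germinal layer beside the lateral ventricles that makes neurons throughout life. SETD4 OE cells (n = 3) had been infected for 24 h with ADV-SETD4-GFP, an adenovirus that carries SETD4, a protein with the SET domain found in lysine methyltransferases, and green fluorescent protein. Control cells (n = 3), labelled WT in genotype, had received ADV-GFP, so both groups carried adenovirus and the fluorescent protein. All cultures were kept in a medium labelled Neuralbasal with B27, a supplement known to contain insulin. Nothing in the labels says whether the 3 libraries of a group came from separate cultures or animals, so the errors measure the spread between these libraries.

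Depth, recovered from FPKM as whole reads, ran from 14924273 to 16045138 reads in SETD4 OE and from 16007182 to 18078717 in control. The library size implied by the deposited FPKM was 1.554e+07 to 1.666e+07 in SETD4 OE and 1.591e+07 to 1.759e+07 in control. It was above the recovered reads in every SETD4 OE library and below them in every control library. Deposited values are thus lower in SETD4 OE, relative to control, than with the scaling to equal sums given below. Setd4 had 296, 346 and 333 FPKM in SETD4 OE, against 0.952, 0.972 and 1.53 FPKM in control, and reads of the construct and of the endogenous gene are not separated there. Mitochondrial genes took 3.78% of reads in control replicate 1, against 2.45% in control replicates 2 and 3, and 3.52% to 3.73% in SETD4 OE. Of the 7 stem cell and astroglial markers, all were detected in every library. Gfap, Sox2, Slc1a3 and Prom1 rose and Nes, Fabp7 and Vim fell, although the Sox2 call was lost in 7 of the alternative fits, among them those without control replicate 1 or 3 and those without each of the SETD4 OE libraries. The summed level of all 7 was 3253 to 3419 FPKM in SETD4 OE and 2672 to 2885 FPKM in control.

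IGF1 and IGF2 are secreted ligands that promote growth and survival through IGF1R, a receptor tyrosine kinase. The binding proteins hold the ligands outside the cell, prolong their life and limit or direct their access to the receptor, and several also act without IGF. IGF2R has no kinase: it takes up IGF2 for degradation and carries mannose 6-phosphate-tagged enzymes to the lysosome. In the adult SVZ the pathway is known for its part in the balance of stem cell quiescence and activation.

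The family was divided in SETD4 OE. The most abundant carriers in control cells, Igfbp2, Igfbp3 and Igfbp4, were lower, while Igfbp5, Igfbpl1, Igfbp7 and the receptor gene Igf1r were higher, and the groups overlapped for Igf2r. Under the call rule used for every gene (limma, Benjamini-Hochberg adjusted p under 0.05 over the 12994 genes tested) 7 of the 8 tested members were called, 4 higher and 3 lower. Of all tested genes 60.0% were called by that rule, 26.0% higher and 33.9% lower. The groups did not overlap for the same number of tested members, 7 of 8 (4 higher, 3 lower), and for 66.0% of all tested genes (29.1% higher, 36.9% lower). The median log2 fold change was 0.09 over the 8 members and -0.06 over all tested genes, a value that lies between changes of opposite sign among the members. In such bulk samples, fewer cells of a type and less RNA per cell cannot be told apart.

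**Figure D1:**
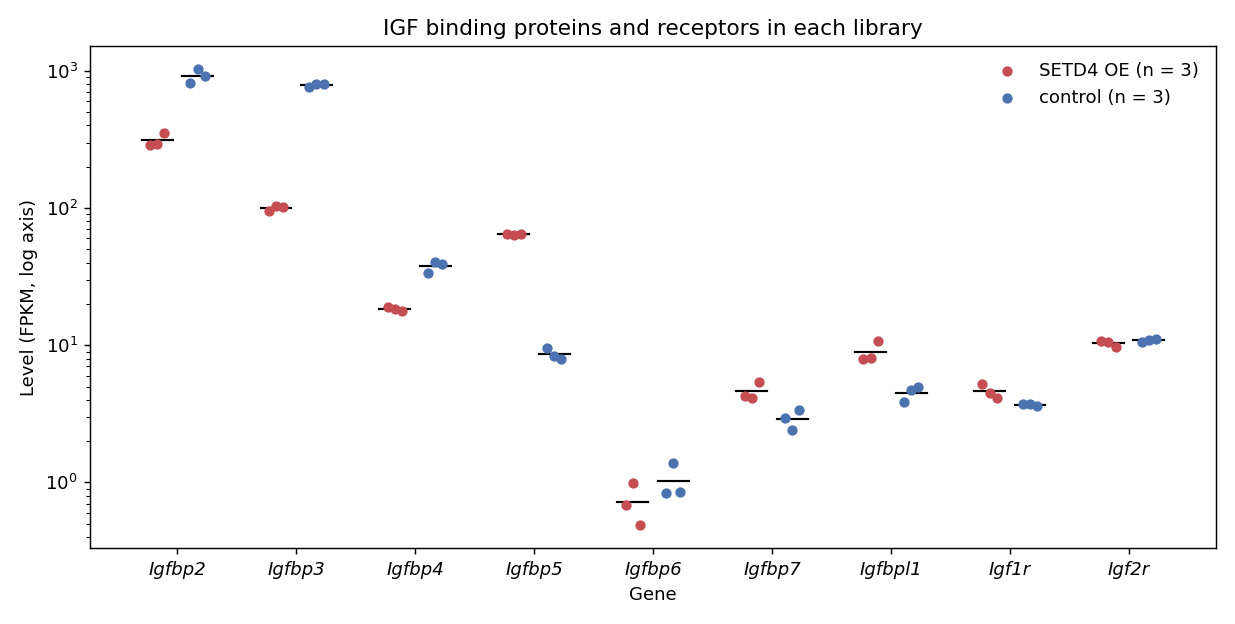
Level of each gene in FPKM on a log axis, in 3 SETD4 OE libraries (red) and 3 control libraries (blue); points are libraries and black lines group means. Igfbp3 lies near 100.3 FPKM in SETD4 OE and 792 FPKM in control, Igfbp5 lies near 64.5 FPKM in SETD4 OE and 8.63 FPKM in control, and the groups overlap for Igfbp6 and Igf2r.

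The promoters of the 4 carriers with the largest changes are shown. The sequences are RefSeq's, on the build GRCm38.p6, and each gives the 80 bases before the annotated start, 5′ to 3′ on the strand of the gene. Capitals mark TATNTA in Igfbp5 and Igfbp3, TATAAA in Igfbp4 and GGGCGG in Igfbp2. The windows are chr1:72874866-72874945 (minus strand) for Igfbp5, chr11:7213924-7214003 (minus) for Igfbp3, chr11:99041164-99041243 (plus) for Igfbp4 and chr1:72824400-72824479 (plus) for the first of the 2 starts listed for Igfbp2.
Igfbp5: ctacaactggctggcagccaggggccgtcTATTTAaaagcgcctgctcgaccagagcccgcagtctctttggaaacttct
Igfbp3: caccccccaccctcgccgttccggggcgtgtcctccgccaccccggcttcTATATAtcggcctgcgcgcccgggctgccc
Igfbp4: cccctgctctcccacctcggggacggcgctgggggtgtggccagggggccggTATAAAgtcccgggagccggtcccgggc
Igfbp2: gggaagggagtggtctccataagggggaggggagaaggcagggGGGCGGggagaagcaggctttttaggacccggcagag

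In these letters TATNTA lies 51 bases before the start of the rising Igfbp5 and 30 bases before that of the falling Igfbp3. TATAAA lies 28 bases before the start of the falling Igfbp4. Igfbp2 has none of either form in its searched windows. The search covered 7 motifs on both strands of the 250 bases before each of the 9 starts that RefSeq lists for 8 of the genes; Igfbpl1 was not matched. TATAAA, which can overlap TATNTA, was found for Igfbp4 and Igfbp6, and in 12.4% of 32851 promoters of the same length. TATNTA, a form chosen after these promoters were read, was found for Igfbp3, Igfbp5 and Igfbp6, and in 25.1% of all. The GC box GGGCGG occurred for Igfbp2, Igfbp7, Igf1r and Igf2r, and in 32.7% of all promoters. The E-box CACGTG occurred for Igfbp2 and Igf2r (6.02% of all), TGANTCA for the second start of Igfbp2 (6.75%), CCAAT for Igfbp6 (33.8%), and GTAAACA for none of the 8 genes (3.17%). These matches describe letters only, and no factor's binding was measured.

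Among the carriers that fell, Igfbp3 changed the most. Igfbp3 (ENSMUSG00000020427; mm39 chromosome 11, 7156086 to 7163923, minus strand) encodes the main carrier of IGFs in blood, which also acts on cell growth on its own. It had 95.8, 103 and 102 FPKM in the 3 SETD4 OE libraries, against 765, 802 and 809 FPKM in the 3 control libraries. The groups lie far apart and the libraries of each differ little, by a coefficient of variation of 3.83% in SETD4 OE and 3.00% in control. The group means were 100.3 ± 3.84 FPKM in SETD4 OE and 792 ± 23.7 FPKM in control (SD, n = 3 each), so that control was 7.90-fold higher, and the log2 fold change was -2.97 (SE 0.06). Only 8 of the 12994 tested genes fell further on this scale. In level, Igfbp3 stood at place 363 among all listed genes in SETD4 OE and at place 28 in control.

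Igfbp2 (ENSMUSG00000039323; chromosome 1, 72863662 to 72891633, plus strand) encodes the binding protein that is typical of brain and cerebrospinal fluid. Its level was 291, 291 and 353 FPKM in SETD4 OE, against 811, 1036 and 917 FPKM in control. All 3 SETD4 OE libraries were below all 3 controls, although the spread within each group was wider than for Igfbp3. The log2 fold change was -1.56 (SE 0.12), with control 2.96-fold higher in mean level. Igfbp2 nevertheless remained the most abundant member in both groups, at place 64 among all listed genes in SETD4 OE and place 18 in control.

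Igfbp4 (ENSMUSG00000017493; chromosome 11, 98932070 to 98945218, plus strand) encodes a carrier that mostly holds IGFs away from the receptor and releases them when it is cut by the protease PAPPA. It had 19.0, 18.4 and 17.7 FPKM in SETD4 OE, against 33.6, 40.1 and 39.1 FPKM in control. The groups did not overlap, and control was 2.05-fold higher (log2 fold change -0.99, SE 0.08).

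The carrier that moved most the other way was Igfbp5 (ENSMUSG00000026185; chromosome 1, 72897091 to 72914043, minus strand), whose protein binds extracellular matrix and heparin as well as IGFs. It had 64.8, 63.4 and 65.2 FPKM in SETD4 OE, against 9.62, 8.31 and 7.96 FPKM in control. The SETD4 OE libraries were nearly alike, with a coefficient of variation of 1.48%, against 10.2% in control. These levels rested on 6147, 5916 and 6523 reads in SETD4 OE and on 926, 878 and 760 reads in control. The mean was 7.47-fold higher in SETD4 OE (log2 fold change 2.77, SE 0.07), the sixth largest rise among all tested genes, and its place in level was 635 in SETD4 OE and 5854 in control.

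Igfbpl1 (ENSMUSG00000035551; chromosome 4, 45809468 to 45826923, minus strand), an IGFBP-like gene of the developing forebrain and of migrating neuroblasts, had 7.93, 8.02 and 10.7 FPKM in SETD4 OE and 3.84, 4.70 and 4.97 FPKM in control. SETD4 OE replicate 3 stood above the other SETD4 OE libraries, and the groups did not overlap (log2 fold change 0.84, SE 0.13). Of the neuroblast markers Dcx, Dlx2, Dlx1, Cd24a, Sox11 and Tubb3, 1 of the 5 tested rose (Tubb3) and 2 fell (Cd24a and Sox11). Dcx, the marker of migrating neuroblasts, lay below the threshold at 1.36 to 1.58 FPKM in SETD4 OE and 0.462 to 0.647 FPKM in control, and without a filter on low values it was called higher by limma (adjusted p = 0.00430). The sum was 93.5 to 104 FPKM in SETD4 OE and 121 to 129 FPKM in control, and most of it was Cd24a, with a mean of 68.5 FPKM in SETD4 OE and 93.8 FPKM in control. The part of these markers in the Igfbpl1 value was not tested.

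Igfbp7 (ENSMUSG00000036256; chromosome 5, 77497087 to 77555888, minus strand) encodes a carrier with low affinity for IGFs that is abundant in blood vessels. It had 4.30, 4.15 and 5.36 FPKM in SETD4 OE, against 2.94, 2.40 and 3.38 FPKM in control. The groups did not overlap, but the value is less precise than those above, since it rests on 78 to 108 reads per library in SETD4 OE and 51 to 65 in control (log2 fold change 0.52, SE 0.12). The gene shares 85 bases at its end with Polr2b, an RNA polymerase II subunit gene on the opposite strand at 24.3 FPKM in SETD4 OE and 29.5 FPKM in control. As no strand setting was given, reads of Polr2b in that stretch may be counted with Igfbp7. Of 7 endothelial markers, only Flt1 reached the threshold, Cldn5 had no read in any library, and the sum, mostly Flt1 in control, was 1.22 to 1.48 FPKM in SETD4 OE and 3.90 to 4.28 FPKM in control. Markers of pericytes and smooth muscle, the other cells of vessels, were divided. Rgs5 rose, with a mean of 1.84 FPKM in SETD4 OE and 0.824 FPKM in control (limma, adjusted p = 0.000757). Pdgfrb, below the threshold, had 1.05 to 1.23 FPKM in SETD4 OE and 0.446 to 0.490 FPKM in control (limma without a filter, adjusted p = 0.00555). Myh11, at no more than 0.0869 FPKM in any library, was higher without overlap but not called (limma without a filter, adjusted p = 0.304). It rested on 5, 6 and 11 reads in SETD4 OE and 5, 3 and 1 in control. Acta2 fell, with a mean of 11.6 FPKM in SETD4 OE and 30.9 FPKM in control. Kcnj8, Abcc9 and Tagln, all below the threshold, had lower means in SETD4 OE, and their groups overlapped. The part of these cells in the Igfbp7 value was not tested.

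Igfbp6 (ENSMUSG00000023046; chromosome 15, 102052797 to 102057946, plus strand) encodes a carrier with a preference for IGF2. It was barely detected, with 12, 17 and 9 reads in SETD4 OE (0.684, 0.984 and 0.486 FPKM) and 15, 27 and 15 reads in control (0.842, 1.38 and 0.848 FPKM). The groups overlapped, and a difference was not detectable at this depth.

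Summed over the 7 carriers, the level was 483, 489 and 555 FPKM in SETD4 OE, against 1626, 1895 and 1782 FPKM in control. The total was thus 3.47-fold higher in control (509 ± 39.8 FPKM in SETD4 OE, 1768 ± 135 FPKM in control; SD, n = 3 each), and the groups did not overlap. Igfbp2 made up 61.1 ± 2.19% of the sum in SETD4 OE and 52.0 ± 2.46% in control. The share of Igfbp3 was 19.8 ± 1.28% in SETD4 OE and 44.9 ± 2.39% in control. Igfbp5 contributed 12.7 ± 0.861% in SETD4 OE and 0.492 ± 0.0863% in control, a share 25.8-fold larger in SETD4 OE. In control cells, then, Igfbp2 and Igfbp3 together made up nearly the whole sum, whereas in SETD4 OE Igfbp5 was the third component. Without Igfbp2 and Igfbp3 the sum of the other 5 carriers went the opposite way, at 97.0 ± 2.32 FPKM in SETD4 OE and 54.7 ± 3.34 FPKM in control.

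**Figure D2:**
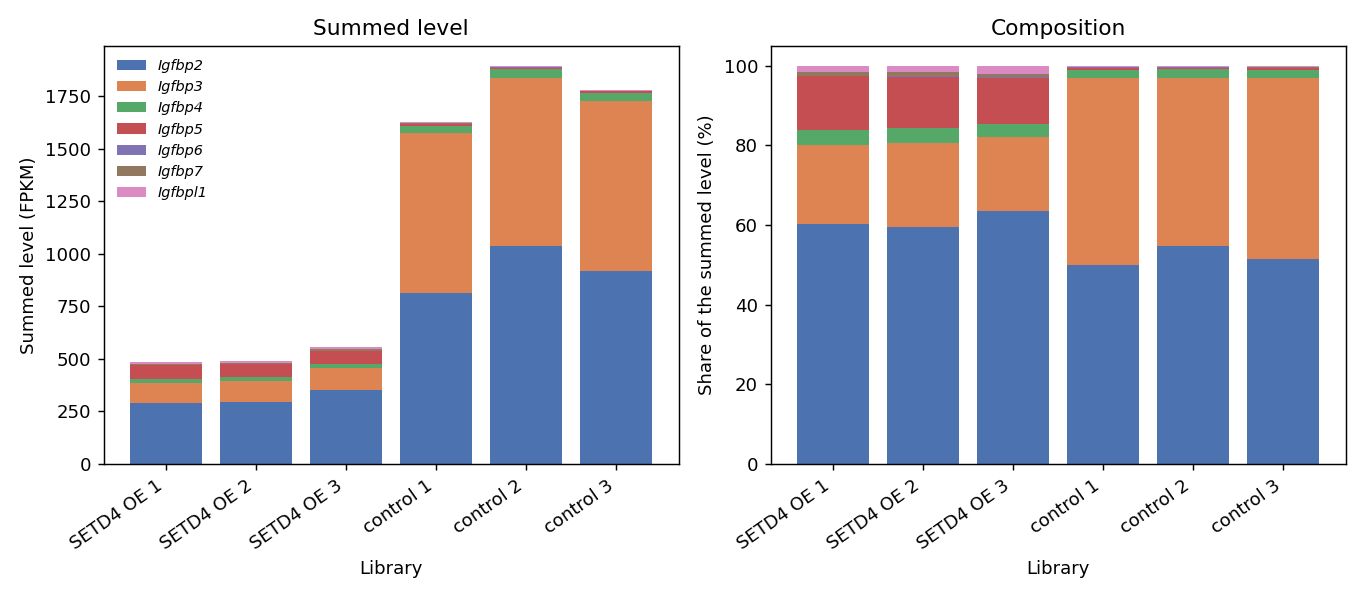
Summed level of the 7 binding protein genes in FPKM (left) and the share of each gene in percent (right), a stacked bar per library. The 3 SETD4 OE bars reach 483 to 555 FPKM and the 3 control bars 1626 to 1895 FPKM; Igfbp5 (red) takes 12.7% of the SETD4 OE sum and 0.492% of the control sum.

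Ratios between members within a library do not depend on how libraries are scaled. There were 4.48, 4.60 and 5.41 units of Igfbp2 per unit of Igfbp5 (FPKM over FPKM) in SETD4 OE, against 84.3, 125 and 115 in control. For Igfbp3 over Igfbp5 the ratio was 1.48, 1.62 and 1.57 in SETD4 OE, against 79.4, 96.5 and 102 in control. Igfbp2 and Igfbp3, which fell together, did so unequally: their ratio was 3.03, 2.84 and 3.45 in SETD4 OE and 1.06, 1.29 and 1.13 in control.

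The order of the members by level differed between the groups. In SETD4 OE it ran from Igfbp2 through Igfbp3, Igfbp5, Igfbp4, Igf2r, Igfbpl1, Igf1r and Igfbp7 to Igfbp6. The ranges of Igf2r and Igfbpl1 overlapped there, as did those of Igf1r and Igfbp7, so their order is not resolved. In control it ran from Igfbp2 through Igfbp3, Igfbp4, Igf2r, Igfbp5, Igfbpl1, Igf1r and Igfbp7 to Igfbp6, and no neighbours in that order overlapped. Igfbp5 was thus the third member in SETD4 OE and the fifth in control.

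Igfbp2 and Igfbp5 are neighbours. On mm39 they point toward each other on chromosome 1 with 5457 bases between their 3′ ends. The falling Igfbp2 and the rising Igfbp5 have no other tested gene with a symbol between them. Igfbp1 and Igfbp3 form a similar pair on chromosome 11 with 3539 bases between them. Igfbp1, a carrier made mainly by the liver, had no read in any library. This allows up to 0.127 FPKM in SETD4 OE and 0.124 FPKM in control (3 counts per library, counting error only). Igfbp3 stood at 100.3 FPKM in SETD4 OE and 792 FPKM in control. The nearest tested genes outside the family were 16, of which 6 rose, 5 fell and 5 were not called. Of all tested genes 26.0% rose and 33.9% fell. On the far side of Igfbp5 the nearest tested gene, Tns1, which encodes the adhesion protein tensin 1, lies 1035346 bases away and rose (log2 fold change 0.35, SE 0.07). Top2a, the DNA topoisomerase of dividing cells, lies 17054 bases from Igfbp4 and fell with it (-2.06, SE 0.06). The others that rose were Tns3 beside Igfbp3, Csad beside Igfbp6, Aldh1b1 beside Igfbpl1, and Ttc23 and Arrdc4 on either side of Igf1r, between 0.27 and 0.56 in log2 fold change; the Arrdc4 call was lost without control replicate 3 (adjusted p = 0.0523, limma). The others that fell were Rpl37a beside Igfbp2, Adcy1 beside Igfbp3, Polr2b beside Igfbp7 and Map3k4 beside Igf2r, between -0.54 and -0.27, with the Polr2b call lost under upper-quartile scaling (adjusted p = 0.0767, limma). Smarce1, Spryd3, Adgrl3, Tdrd7 and Gm49958 were not called.

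**Figure D3:**
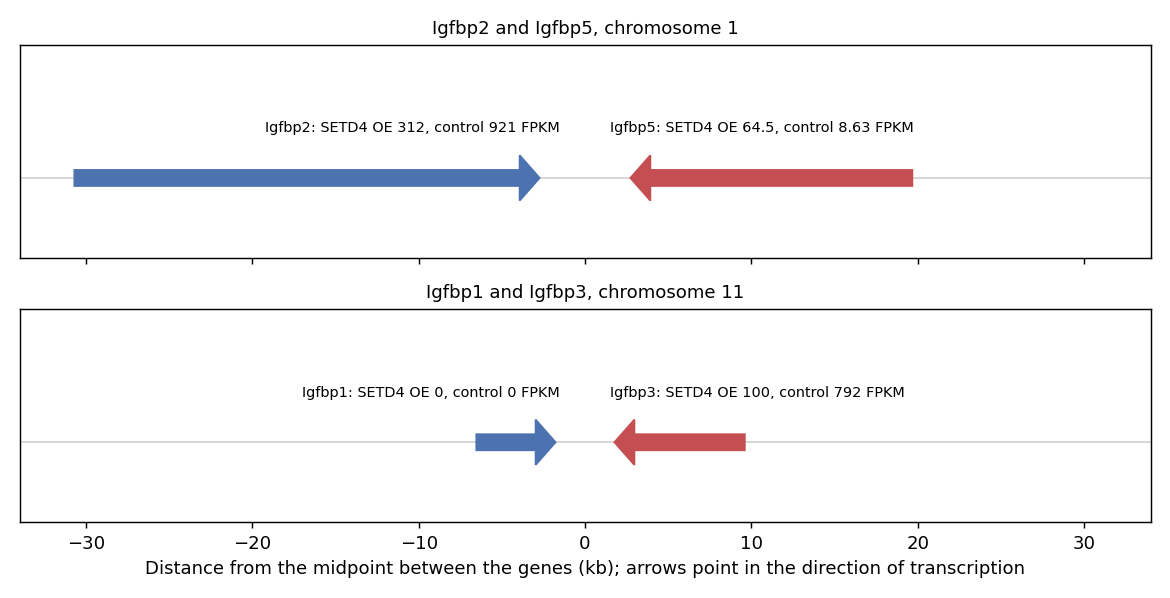
Position of the convergent gene pairs Igfbp2 and Igfbp5 (top) and Igfbp1 and Igfbp3 (bottom), in kilobases from the midpoint between the genes of a pair; arrows show the direction of transcription and labels the group mean levels in FPKM. The genes of a pair face each other, and in the upper pair Igfbp2 is at 312 FPKM in SETD4 OE and 921 FPKM in control while Igfbp5 is at 64.5 FPKM in SETD4 OE and 8.63 FPKM in control.

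Of the receptors, Igf1r (ENSMUSG00000005533; chromosome 7, 67602575 to 67883416, plus strand), which encodes the signalling receptor of both ligands, had 5.23, 4.45 and 4.14 FPKM in SETD4 OE, against 3.72, 3.74 and 3.63 FPKM in control. Every SETD4 OE library was above every control library, with SETD4 OE replicate 1 the highest and the controls nearly alike. The mean was 1.25-fold higher (log2 fold change 0.25, SE 0.08). This is the weakest of the called members: the call held in 7 of the 14 fits that included the gene, and it was lost when any library other than SETD4 OE replicate 3 was left out, with a log2 fold change of 0.17 without SETD4 OE replicate 1.

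Igf2r (ENSMUSG00000023830; chromosome 17, 12901293 to 12988551, minus strand) is an imprinted gene expressed mainly from the maternal allele in most mouse tissues. It had 10.7, 10.5 and 9.65 FPKM in SETD4 OE and 10.5, 11.0 and 11.1 FPKM in control. The groups overlapped, and the log2 fold change of -0.07 (SE 0.06) took either sign among the alternatives, between -0.10 and 0.07. Its antisense partner Airn, the noncoding RNA that silences the paternal allele, overlaps it by 28354 bases. Airn stood at 0.493 FPKM in SETD4 OE and 0.666 FPKM in control, with at most 63 reads in a library. As no strand setting was given, reads of either gene in that stretch may be counted with the other.

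The other genes of the pathway were taken as 48 genes in 5 lists, of which 30 were tested, 3 rose, 15 fell and 12 were not called (limma, adjusted over all 12994 genes). Of all tested genes 26.0% rose, 33.9% fell and 60.0% were called, and these shares apply to each list below. The median log2 fold change of the pathway genes was -0.18, against -0.06 over all tested genes. With upper-quartile scaling, which moved the median of all tested genes to 0.07, 6 rose and 8 fell. Equal sums and the median of ratios put that median at 0.013 and 0.002, and with each of them 3 rose and 13 fell. The size of the excess of falls thus depends on the scaling, while falls outnumbered rises with every scaling. Of all called genes, 57.6% were higher in SETD4 OE with upper-quartile scaling. The share was 50.9% with equal sums, 49.8% with the median of ratios and 43.4% with the values as deposited. The members' calls were the same with every scaling.

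The ligand genes were barely detected. Igf1 had 36, 36 and 29 reads in SETD4 OE (0.230, 0.234 and 0.176 FPKM), against 10, 11 and 9 reads in control (0.0630, 0.0631 and 0.0571 FPKM). Igf2 had 12, 14 and 29 reads in SETD4 OE, against 1, 2 and 4 reads in control. The SETD4 OE libraries were above the controls for both ligands, but at these counts neither gene reached the threshold; without a filter on low values both were called higher by limma (adjusted p = 0.0110 for Igf1 and 0.0396 for Igf2). The highest level of either ligand in any library was 0.304 FPKM, for Igf2 in SETD4 OE replicate 3. Choroid plexus epithelium is a known source of IGF2 in brain, and its markers Ttr, Kl, Clic6, Folr1, Otx2 and Aqp1 moved with Igf2: all 5 tested rose, and their sum, mostly Ttr, was 633 to 723 FPKM in SETD4 OE and 253 to 284 FPKM in control. Markers of fibroblasts and meninges, another known source, rose in 2 of 2 tested cases and summed to 10.2 to 11.0 FPKM in SETD4 OE and 2.87 to 3.33 FPKM in control. The part of either in the ligand values was not tested.

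Insr, the insulin receptor and sister of IGF1R, had 5.46, 5.39 and 5.15 FPKM in SETD4 OE, against 6.72, 6.62 and 6.76 FPKM in control. It fell (log2 fold change -0.28, SE 0.05, adjusted p = 0.00308, limma), and with upper-quartile scaling the call was lost (-0.15, adjusted p = 0.0693). Within each library the ratio of Igf1r to Insr, which no scaling changes, was 0.957, 0.826 and 0.803 in SETD4 OE, against 0.554, 0.565 and 0.537 in control. All 3 SETD4 OE libraries had a higher ratio than all 3 control libraries.

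Proteases and their inhibitors control how long a carrier holds its ligand. All 3 tested genes of that list of 8 fell, as did 33.9% of all tested genes. Adam12, a metalloprotease known to cut IGFBP3 and IGFBP5, had 3.30, 3.18 and 3.08 FPKM in SETD4 OE, against 11.7, 11.4 and 12.4 FPKM in control (log2 fold change -1.62, SE 0.06, adjusted p = 2.597e-06, limma). Stc1 and Stc2, the stanniocalcin genes, whose products inhibit PAPPA, had log2 fold changes of -0.71 (SE 0.10) and -0.41 (SE 0.11). The Stc2 call was lost without control replicate 2, without control replicate 3 and without a filter on low values, with adjusted p (limma) of 0.0510, 0.0565 and 0.0544. Pappa itself stood below the threshold, at 0.350, 0.584 and 0.430 FPKM in SETD4 OE and 0.379, 0.376 and 0.365 FPKM in control, and the groups overlapped.

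Of 12 other genes that encode an IGFBP-type domain, 7 were tested, 1 rose and 3 fell. Ccn3, a matricellular signalling protein gene, fell (log2 fold change -0.76, SE 0.15), as did Crim1, a transmembrane regulator of BMPs (-0.49, SE 0.08), and Htra1, a secreted serine protease known to cut IGFBP5 (-0.32, SE 0.08; lost with upper-quartile scaling, adjusted p = 0.0652, limma). Htra3, a relative of Htra1, rose (0.50, SE 0.08). Crim1 overlaps Fez2 and Htra1 overlaps Fgfr2 on the opposite strand, so their values may hold reads of those genes. Htra1 lies wholly within Fgfr2, which stood at 11.6 FPKM in SETD4 OE and 5.57 FPKM in control.

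Next to the receptor, 9 of 12 adaptor and brake genes were tested, and 1 rose and 5 fell. Irs2, an adaptor that passes the signal of IGF1R and the insulin receptor to PI3 kinase, had 16.5, 15.8 and 15.7 FPKM in SETD4 OE, against 30.5, 31.0 and 29.9 FPKM in control (log2 fold change -0.89, SE 0.05, adjusted p = 1.094e-05, limma). Its relative Irs1 fell less (-0.29, SE 0.06), a call lost with upper-quartile scaling (adjusted p = 0.0585, limma). Gab1, a docking protein used by several receptor kinases, rose, with 30.9, 34.5 and 30.6 FPKM in SETD4 OE and 15.9, 14.7 and 16.1 FPKM in control (0.99, SE 0.07). The libraries of a group agreed closely for each of these genes, and the groups did not overlap.

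IGF2R shares its mannose 6-phosphate route with M6PR, its small relative, and with enzymes that make the tag. Of 10 genes of that route, all tested, 1 rose, 3 fell and 6 were not called. M6pr fell (log2 fold change -0.41, SE 0.06), as did Vps29, a subunit of the retromer that returns these receptors (-0.37, SE 0.06), while Gnptg, a subunit of the enzyme that makes the tag, rose (0.41, SE 0.07). Gnptg overlaps Unkl and Vps29 overlaps Fam216a on the opposite strand, so their values may hold reads of those genes. Unkl stood at 2.61 FPKM in SETD4 OE and 1.49 FPKM in control, and Fam216a at 15.3 and 21.2 FPKM. Each thus differed in the same direction as the gene it overlaps, and its part in that gene's value was not tested. The ratio of Igf2r to M6pr was 0.491, 0.545 and 0.446 in SETD4 OE, against 0.378, 0.394 and 0.390 in control.

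**Figure D4:**
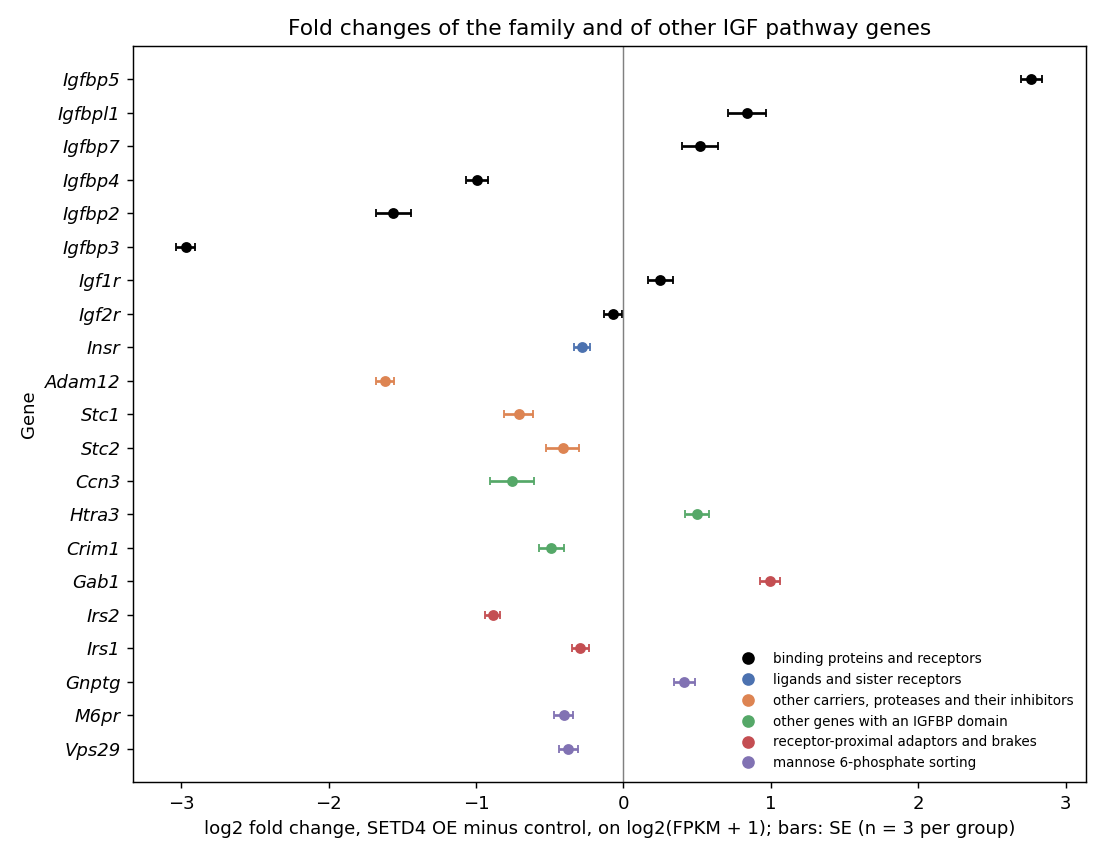
Log2 fold change (SETD4 OE minus control, on log2(FPKM + 1)) with its standard error for the 8 tested members (black) and for up to 3 called genes of each pathway list (colours), n = 3 per group. Members run from -2.97 for Igfbp3 to 2.77 for Igfbp5, while the other pathway genes lie between -1.62 for Adam12 and 0.99 for Gab1.

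The genes most like the extreme members were found by the root mean square distance between log2(FPKM + 1) profiles over the 6 libraries, each centred on its own mean. Nearest to Igfbp5 were Tmem132b (distance 0.09), Aqp4, the astrocyte water channel gene (0.11), Ripply1 (0.13), Gem, a small GTPase gene (0.14), and Ntsr2, a neurotensin receptor gene of astroglia (0.14). Nearest to Igfbp3 were Spry1 (0.07), Akap12, a kinase anchoring protein gene (0.08), Adamts14, a procollagen protease gene (0.09), Spry4 (0.17) and Nptx2, a neuronal pentraxin gene (0.17). Spry1 and Spry4 encode Sprouty feedback inhibitors of receptor kinase signalling. Their log2 fold changes ran from 2.55 to 2.82 for the genes near Igfbp5 and from -3.09 to -2.65 for those near Igfbp3, so the likeness over 6 libraries in 2 groups rests largely on the size of the difference between the groups.

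Markers of other cell types moved in these cultures as well. Those of oligodendrocyte precursors rose in 4 of 4 tested cases (29.5 to 30.8 FPKM summed in SETD4 OE, 9.14 to 10.1 FPKM in control) and those of oligodendrocytes in 4 of 4 (24.5 to 26.2 FPKM in SETD4 OE, 9.41 to 11.2 FPKM in control). Ependymal markers also rose in 4 of 4 (49.0 to 65.8 FPKM in SETD4 OE, 19.6 to 24.9 FPKM in control), the Tmem212 call being lost without SETD4 OE replicate 3, without control replicate 1 and without control replicate 2. Of 7 pericyte and smooth muscle markers 2 were tested: Rgs5 rose and Acta2, the smooth muscle actin gene that makes up most of the sum, fell (13.1 to 16.2 FPKM summed in SETD4 OE, 30.1 to 35.2 FPKM in control). Of the neuronal markers only Nefl was tested, and it fell (1.31 to 1.71 FPKM summed in SETD4 OE, 8.18 to 8.96 FPKM in control). The control sum was mostly Nefl, with a mean of 7.65 FPKM there and 0.577 FPKM in SETD4 OE. Below the threshold, Rbfox3 (0.236 FPKM in SETD4 OE, 0.0938 FPKM in control) and Syt1 (0.177 and 0.141 FPKM) were higher without overlap. Without a filter on low values Rbfox3 was called (limma, adjusted p = 0.0260) and Syt1 was not (adjusted p = 0.479). Syt1 rested on 24, 21 and 26 reads in SETD4 OE and 20, 18 and 20 in control. The groups overlapped for Snap25 and Slc17a7. None of the 8 microglia and macrophage markers reached the threshold (1.74 to 2.12 FPKM summed in SETD4 OE, 0.826 to 1.22 FPKM in control). The part of these cells in the values of the binding proteins was not tested.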

How the data were processed

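The authors deposited normalised FPKM values per gene and library in 1 table per group, with gene length and coordinates, after alignment with HISAT2 2.0.5 to mm39, per the submitters' processing notes. The unit was read from the values: multiplied by length, 100% of them were whole multiples of what 1 read is worth (tolerance 0.05 reads). The tool used for counting, the release of the annotation and the strand setting are not given in the sources used here. Groups and replicate numbers came from the sample titles.

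FPKM were put on a scale of log2(FPKM + 1). Genes were tested where the 6 libraries averaged 1 FPKM or more, with limma 3.58.1 in R 4.3.3 (mean-variance trend, two-sided, Benjamini-Hochberg over all tested genes, called at adjusted p under 0.05). Fold changes on this scale understate those of low genes. Each SE of a fold change is limma's moderated value, which draws on the spread of the other tested genes as well. No libraries were repeats of each other: the chi-square per degree of freedom of recovered reads was 3.89 to 16.3 within groups. The test was checked on simulated data.

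The members and lists were chosen with earlier results of these data known. Named genes were Setd4, all members, up to 3 called genes per pathway list with the largest change, Igf1, Igf2, Insr, Igfbp1, Irs1, Irs2 and Pappa, the 5 nearest profiles to each extreme member, and the nearest tested gene on each side of a member. Htra1, Fgfr2, single markers and the motif TATNTA were added after their values or letters were seen. Promoters came from RefSeq on GRCm38.p6, and gene coordinates are those of the deposited tables. Alternatives were 2 other filters, a pseudocount of 0.1, a replicate block, 3 scalings, limma-voom on recovered reads, and each of the 6 libraries left out. Figures were drawn with matplotlib 3.10.9.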

Additional observations from a re-analysis of the deposited data

How the results depend on the processing

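Across all tested genes 7790 were called, and 6637 to 7874 when a library was left out. With a mean of at least 5 FPKM, 1881 genes were called higher, against 3384, since fewer genes were tested. The same filter left 2 members called higher in place of 4, because Igf1r and Igfbp7 were no longer tested; 3 were called lower under every alternative. With a library left out, 3 to 4 members were called higher. For the other pathway genes, 3 were called higher with the test as reported, 7 without a filter and 6 with upper-quartile scaling; 15 were called lower, 8 with that scaling and 11 to 16 with a library left out. The log2 ratio of the summed carriers was -1.80, -1.73 to -1.65 with the other scalings and -1.86 to -1.74 with a library left out. For 84 single genes (Setd4, the tested members, Htra1, and the pathway, neighbouring, profile and marker genes that were tested and named by rule), 1110 of 1141 values under the alternatives stayed on the same side of the threshold and 28 lost the call. The 3 that gained it were Spryd3 without SETD4 OE replicate 1 and without control replicate 1, and Gm49958 without control replicate 2. Fabp7, Vim and Tmem212 lost it without a filter.

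Same-numbered libraries did not deviate together (correlations of their deviations from the group means -0.07, -0.23 and 0.08), so the numbers are not taken as pairs. With the replicate block 6941 genes were called, among them 6 members (3 higher, Igf1r being lost) and 16 other pathway genes. Depth limits Igfbp6, Igf1 and Igf2 most, which rest on at most 36 reads per library.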
